A study of Allium mongolicum with 12 samples.

Results

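The step from 48 h to 72 h of a saline-alkali treatment was described in roots of Allium mongolicum, a wild onion of dry steppe, from RNA sequencing of 3 libraries per time. Roots after 72 h (T72) were compared with roots after 48 h (T48). Seedlings of both groups had been grown in soil for 45 days and kept in Hoagland nutrient solution for 7 days. They then stood in a salt mixture of 150 mmol/L in total, made of 1 part NaCl, 9 parts Na2SO4, 9 parts NaHCO3 and 1 part Na2CO3. The remaining groups, roots after 24 h (T24) and roots sampled at 0 h (CK), bring the series to 12 libraries and are used here as background. No mutant, transgene or second genotype is named in the labels. Roots of 20 seedlings were taken per group, and the labels do not say how they were divided among libraries; the p-values below therefore reflect differences among these libraries only, and those may be technical. No unstressed roots of the later times are among the libraries, so duration of stress, plant age and harvest cannot be told apart.

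The features described are those with a mean of at least 5 CPM (each count put relative to the total of its library) over the 6 libraries of T72 and T48. This rule gave 20992 of the 98328 assembled transcripts in the table, which held 93.1% of the counts of these libraries. The last feature outside it had a mean of 4.9999 CPM and the first inside it 5.001 CPM. Of the 20992, 20925 passed the low-count filter and were tested. A level of 5 CPM stood for 120 to 129 estimated counts in these libraries. Levels below are CPM scaled by TMM factors, which align the bulk of the features between libraries, and they are not corrected for transcript length. In bulk roots, fewer cells of a type and less RNA per cell cannot be told apart.

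Sodium carbonate and bicarbonate make a solution alkaline, so roots in such a mixture meet sodium excess, osmotic stress and high pH together. Plants are known to meet these with sodium export and storage in vacuoles, proton pumping at the root surface, osmolytes, enzymes against reactive oxygen, and phenylpropanoids, the precursors of lignin and flavonoids. The series names phenylpropanoid metabolism as its subject. The files give assembly IDs without gene names or sequences, so no transcript could be assigned to any of these processes, and the root label could not be checked against marker genes.

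The T48 libraries were not alike, and every result of this step rests on them. Across the 20925 features the median absolute difference in log2(CPM + 0.5) between T48 replicate 1 and T48 replicate 3 was 0.25. T48 replicate 2 differed from them by 0.37 to 0.38, and from the CK libraries by 0.30 to 0.36. It was thus nearer to each CK library than to either library of its own group, and nearest to CK replicate 2. The other T48 libraries differed from CK by 0.39 to 0.47. Against the T72 libraries, T48 replicate 2 differed by 0.41 to 0.45 and the other T48 libraries by 0.31 to 0.40. The T72 libraries were closer to each other, at 0.20 to 0.23. The biological coefficient of variation (the spread beyond counting error) was 27.8% in T72 and 38.3% in T48. Within T48 it was 31.1% for replicates 1 and 3 but 41.0% for replicates 1 and 2 and 39.9% for replicates 2 and 3. T48 replicate 2 paired with CK replicates 1, 2 and 3 gave 38.4%, 30.6% and 36.9%. For 47.5% of features, T48 replicate 2 was the library farthest from the other members of its group, against 26.9% for T48 replicate 1 and 25.6% for T48 replicate 3. In T72 these shares ran from 29.8% to 37.1%. Library totals of T72 and T48 ran from 23923456 to 25784662.

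**Figure D1:**
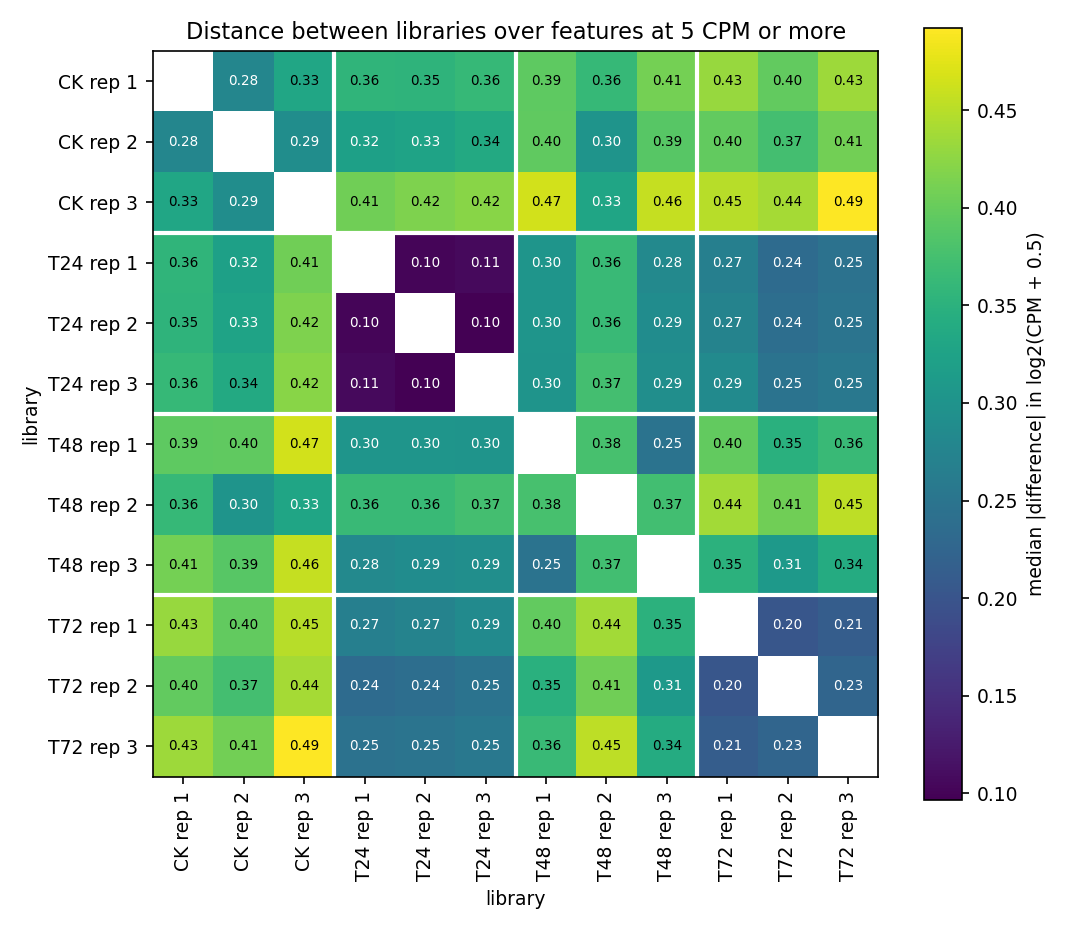
Median absolute difference in log2(CPM + 0.5) between each pair of the 12 libraries over 20925 features, with darker squares for smaller differences and white lines between the times. T48 replicate 2 differs from the CK libraries by 0.30 to 0.36 and from the other T48 libraries by 0.37 to 0.38.

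Between 48 h and 72 h, 172 of the 20925 features fell and 137 rose (edgeR quasi-likelihood test on the T72, T48 and CK libraries, Benjamini-Hochberg adjusted p below 0.05). These 309 features were 1.48% of those tested, where 0.5% of all 67979 tested transcripts were called (0.216% higher and 0.284% lower). A higher count makes a call easier, and the 47054 tested transcripts under 5 CPM gave the remaining 31 calls. The 137 rises had a median log2 change of 1.58, from 0.65 to 7.02, and 115 were at least 2-fold. The 172 falls had a median of -1.62, from -0.82 to -8.85, and 164 were at least 2-fold. The median over all 20925 features was -0.003. All 309 called features had their 3 T72 libraries on one side of the 3 T48 libraries, as did 6719 of the 20925 (32.1%), against 21.6% of all tested transcripts. Of the 6719, T72 was higher in 3496 and lower in 3223. An unadjusted p below 0.05 was reached by 4900 features (23.4%), against 12.4% of all tested transcripts.

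The calls lay close to the threshold. The lowest adjusted p was 0.0165, 151 of the 309 had an adjusted p between 0.04 and 0.05, and at a threshold of 0.1 the count was 953 (390 higher and 563 lower). With edgeR on the T72 and T48 libraries alone 0 features were called. An unadjusted p below 0.05 was reached there by 4871 (23.3%), against 13.5% of all transcripts tested. On the 9 libraries DESeq2 called 2370 (with 5.14% of all transcripts tested) and limma 821 (with 1.57%). Adding the T24 libraries to edgeR's fit, whose differences among themselves were only 0.10 to 0.11 in median, raised the count to 1454 (with 2.35% of all transcripts tested there).

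Summed over the 172 features that fell, the level was 5260, 7165 and 5628 CPM in T72 replicates 1, 2 and 3, against 17953, 20902 and 14905 CPM in T48 replicates 1, 2 and 3. Over the 137 that rose it was 13183, 11580 and 14050 CPM in T72, against 4835, 4404 and 4566 CPM in T48. T48 replicate 2 was the T48 library farthest from T72 in both sums.

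Called features were compared with their levels at the earlier times. The median level of the features that fell was 45.5 to 51.7 CPM in CK, 24.8 to 25.2 CPM at 24 h, 43.5 to 59.4 CPM at 48 h and 15.2 to 18.8 CPM at 72 h. Of the 172, the CK mean was nearer to the T48 mean in 152 and the T24 mean nearer to the T72 mean in 119. For the features that rose the medians were 21.6 to 22.7 CPM in CK, 31.7 to 34.1 CPM at 24 h, 14.4 to 16.8 CPM at 48 h and 44.6 to 54.0 CPM at 72 h. Of the 137, the CK mean was nearer to T48 in 92 and the T24 mean nearer to T72 in 92. The T24 mean thus lay on the T72 side for most called features, and the CK mean on the T48 side. The same count was not made over all features. The T48 mean also includes T48 replicate 2, the T48 library nearest to CK. Over all 20925 features, T24 libraries differed from T72 by a median of 0.24 to 0.29 on the log2 scale, from T48 replicates 1 and 3 by 0.28 to 0.30 and from T48 replicate 2 by 0.36 to 0.37. CK libraries differed from T72 by 0.37 to 0.49 and from T48 replicates 1 and 3 by 0.39 to 0.47, ranges that overlap, and from T48 replicate 2 by 0.30 to 0.36.

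**Figure D2:**
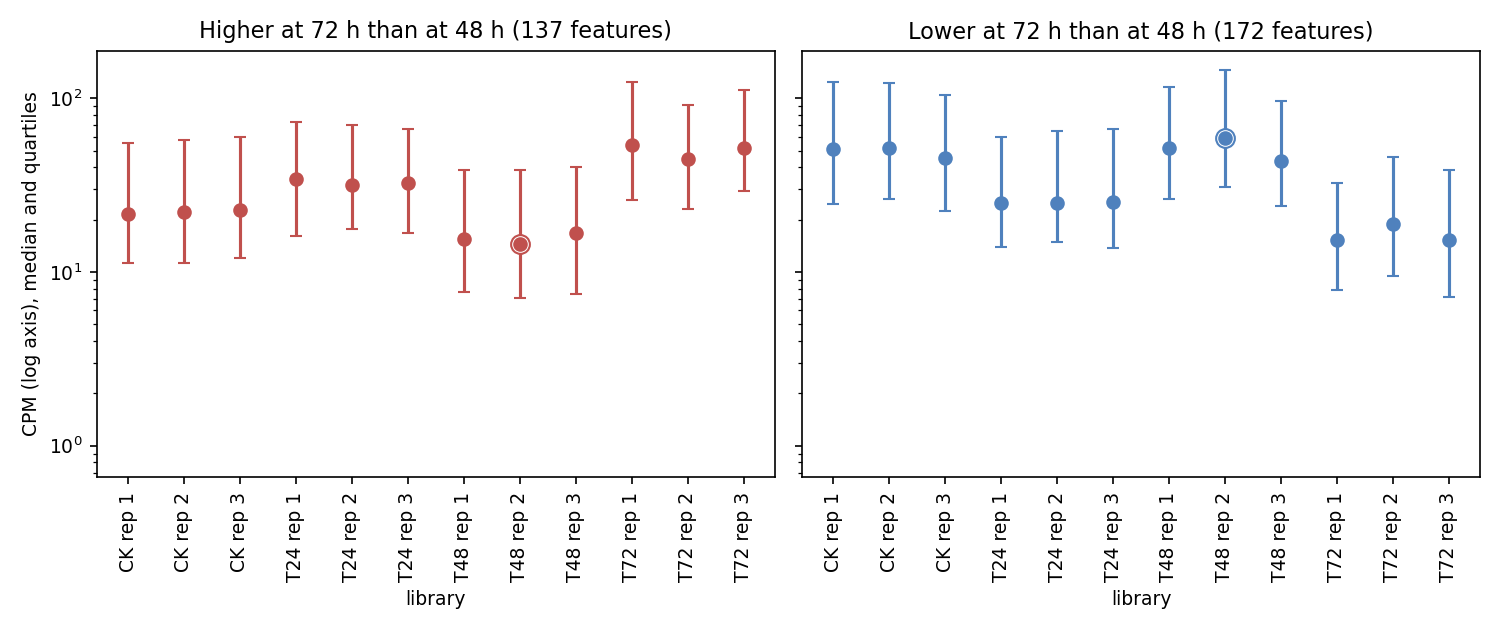
Level in CPM (log axis) of the 137 features called higher and the 172 called lower at 72 h, by library in the order of time; points are medians over features, bars run from the lower to the upper quartile, and T48 replicate 2 carries a ring. The medians of falling features lie at 43.5 to 59.4 CPM at 48 h and at 15.2 to 18.8 CPM at 72 h.

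A set of 4 features was taken as examples, the largest change and the highest level in each direction among those called both with and without T48 replicate 2 (44 rises and 50 falls with at least 10 counts in each of the 6 libraries). The largest of these rises was TRINITY_DN36198_c0_g1_i2_2, at 135, 116 and 251 CPM in T72 and 2.97, 7.54 and 4.13 CPM in T48. Its T72 libraries stood far above every T48 library, and T48 replicate 2 was the highest of its group. The log2 change was 5.10 (SE 0.56, 34.3-fold, adjusted p = 0.0216), and 5.56 without T48 replicate 2 (adjusted p = 0.0398). In CK it stood at 21.0, 36.3 and 12.0 CPM, so its T48 libraries lay below all CK libraries. The most abundant of these rises was TRINITY_DN39102_c0_g1_i4_4, at 525, 461 and 509 CPM in T72 and 202, 156 and 237 CPM in T48. T48 replicate 2 was here the lowest library, and the log2 change of 1.33 (SE 0.18, adjusted p = 0.0284) became 1.19 without it (adjusted p = 0.0440). This feature stood at 251, 198 and 209 CPM in CK, a range that overlapped T48.

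The largest of the falls was TRINITY_DN41369_c0_g3_i1_2, at 1.60, 2.61 and 1.08 CPM in T72 and 24.4, 27.3 and 26.5 CPM in T48. The 3 T48 libraries agreed closely, so the log2 change was -3.88 with T48 replicate 2 (SE 0.40, adjusted p = 0.0216) and -3.84 without it (adjusted p = 0.0398). Its CK libraries lay between the groups, at 12.0, 10.8 and 5.65 CPM. The most abundant of the falls was TRINITY_DN40784_c1_g1_i5_3, at 256, 368 and 292 CPM in T72 and 989, 1078 and 759 CPM in T48. The groups did not overlap, and T48 replicate 2 was the highest library. Its CK libraries stood at 1035, 987 and 738 CPM, a range that overlapped T48. The log2 change was -1.63 (SE 0.21, adjusted p = 0.0254), and -1.51 without T48 replicate 2 (adjusted p = 0.0497). Each of these 4 features was called in 15 of 21 alternative fits, of which the fit without T48 replicate 2 was part of the choice.

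**Figure D3:**
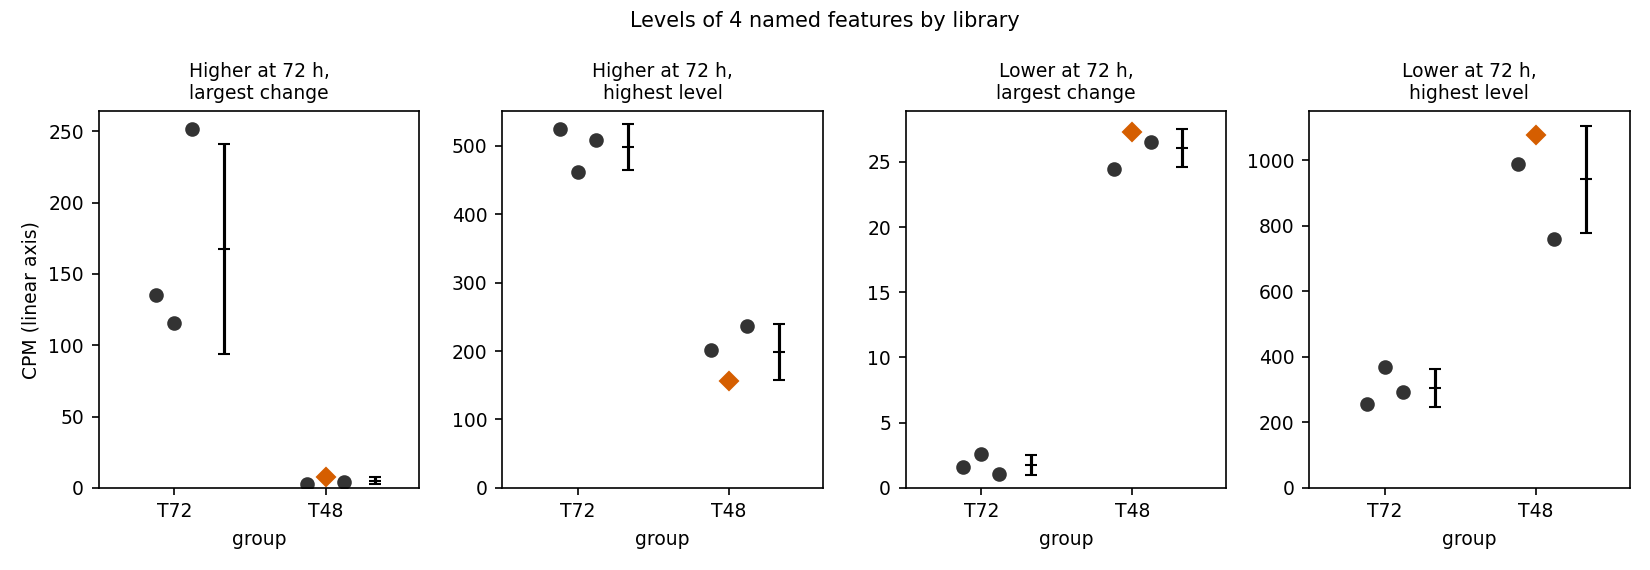
Level in CPM (linear axis from 0) of the 4 named features in the 3 T72 and 3 T48 libraries; T48 replicate 2 is the orange diamond, and the bar beside each group is the mean with its SD (n = 3). The T72 and T48 libraries do not overlap in any of the 4 panels, and T48 replicate 2 is the highest T48 library in 3 of them and the lowest in the most abundant rise.

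Leaving out T48 replicate 2 changed both the number and the balance of the calls. Without it 127 of the 20925 features were called (71 rose and 56 fell), where 0.187% of all 74827 transcripts tested in that fit were called (0.102% higher and 0.0855% lower). Rises then outnumbered falls, the opposite of the balance with all libraries. The balance turned the same way when T48 replicate 2 was left out of the other fits: to 614 rises and 575 falls with all 12 libraries (1.73% of all transcripts called), 1178 and 1067 with DESeq2 (4.29%), and 347 and 252 with limma (0.986%). With it those fits gave 651 rises and 803 falls, 1028 and 1342, and 351 and 470. It also turned in the 9-library fit without CK replicate 1 (46 rises and 39 falls, with 0.118% of all transcripts called) or CK replicate 3 (78 and 58, with 0.187%), whose levels enter only through the spread and scaling. Leaving out T48 replicate 3 moved the balance the other way, to 52 rises and 165 falls (0.312% of all transcripts called). Without T72 replicate 2 there were 51 rises and 103 falls (0.223%). Among features at a mean of 100 CPM or more, 30 rises and 35 falls became 19 rises and 7 falls without T48 replicate 2. At lower levels the counts without it were nearly even. At 20 to 100 CPM 66 rises and 89 falls became 34 and 31, and at 5 to 20 CPM 41 and 48 became 18 and 18.

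Of the 309 features called with all libraries, 98 (31.7%) were also called without T48 replicate 2, and these made up 77.2% of the 127. The 98 were 47 rises and 51 falls. Since their groups did not overlap, none of the 309 could turn its direction with a library left out; without T48 replicate 2 the change became larger in 97 of them. The median change of the 137 rises was 1.51 without it (1.58 with it), and that of the 172 falls -1.51 (-1.62 with it). T48 replicate 2 was the T48 library farthest from T72 in 108 of the 172 falls (62.8%) and in 62 of the 137 rises (45.3%). Over all features with groups apart, called or not, the shares were close to these, at 58.5% of 3223 lower and 44.6% of 3496 higher features. For falls, T48 replicate 3 was the nearest to T72 in 120 of 172 (69.8%). Over all 3223 lower features with groups apart it was so in 1729 (53.6%).

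Leaving out T48 replicate 2 lowered the count of calls less than leaving out any of 5 other libraries did, and more than leaving out the remaining 3. Leaving out T72 replicate 1 or T72 replicate 3 left 0 features called (edgeR). An unadjusted p below 0.05 was then reached by 3384 (16.2%) and 3835 (18.3%) features, against 8.30% and 10.3% of all transcripts tested. Leaving out T48 replicate 1 left 1 call (with 0.00135% of all transcripts tested), CK replicate 2 left 3 (0.00401%) and CK replicate 1 left 85 (0.118%). Without T48 replicate 3 there were 217 calls (0.312% of all transcripts tested), without T72 replicate 2 154 (0.223%) and without CK replicate 3 136 (0.187%). The sizes of the changes, which do not turn on a threshold of p, are given next.

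On the sizes of the changes T48 replicate 2 had the largest effect of the 6 libraries compared. Leaving it out moved the log2 change of a feature by a median of 0.12, and by at least 0.5 in 1413 features. Leaving out T48 replicate 1 or T48 replicate 3 moved it by at least 0.5 in 602 or 630 features, and leaving out a T72 library in 304 to 547. The sign of the change turned in 2451 features (11.7%) without T48 replicate 2, against 9.18% without T48 replicate 1, 7.97% without T48 replicate 3 and 6.40% to 6.88% without a T72 library. With all libraries 1026 features were at least 2-fold higher and 1577 at least 2-fold lower at 72 h. Without T48 replicate 2 these numbers were 1238 and 1326. Of the 2603 features with at least a 2-fold change, 1952 remained at least 2-fold without it, 46 turned their sign, and 612 others reached 2-fold.

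Set against single T48 libraries, the T72 mean was at least 2-fold higher than T48 replicate 2 in 1745 features and at least 2-fold lower in 2242. Against T48 replicate 1 these were 1596 and 1642, and against T48 replicate 3 they were 1201 and 1309. Lower features thus outnumbered higher ones most against T48 replicate 2. Of the 1178 features whose T72 mean was at least 2-fold above the mean of T48 replicates 1 and 3, 564 (47.9%) were also at least 2-fold above T48 replicate 2, and 219 (18.6%) were below it. Of the 1301 at least 2-fold below, 717 (55.1%) were so against T48 replicate 2 as well, and 218 (16.8%) lay above it. When T48 replicate 1 was set against T48 replicates 2 and 3 in the same way, 9.21% and 6.32% had the opposite sign, and for T48 replicate 3 12.2% and 8.68%.

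T48 replicate 2 also kept groups from separating. Without it 9751 features had T72 and T48 apart, of which 3032 overlapped once it was included, and in 1263 of those it lay past all 3 T72 libraries. T48 replicate 1 did so for 1892 features and lay past T72 in 584, and T48 replicate 3 for 2392 and in 664. Separation is easier with 2 libraries than with 3: over all tested transcripts 35.7% were apart without T48 replicate 2, 30.9% without T48 replicate 1 and 33.2% without T48 replicate 3.

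**Figure D4:**
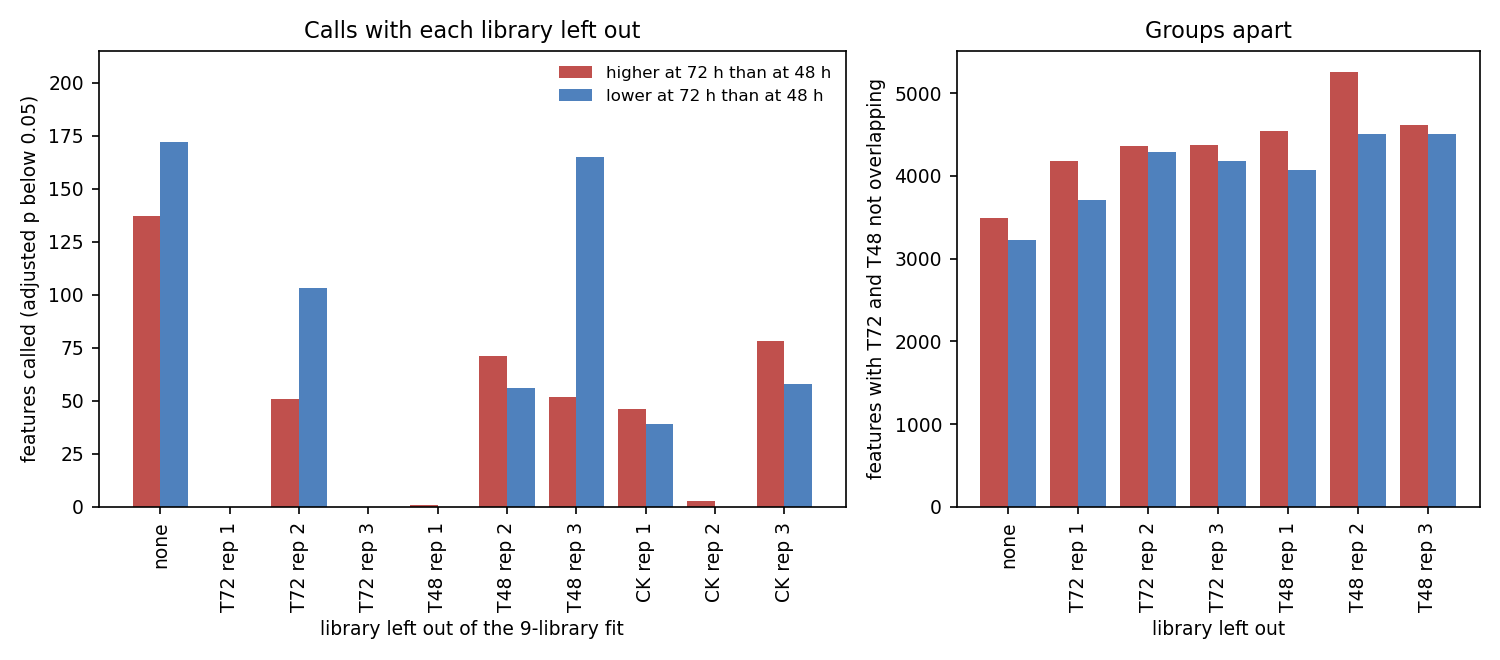
Left, features called higher (red) and lower (blue) at 72 h than at 48 h in the 9-library fit with no library or 1 library left out; right, features whose T72 and T48 libraries do not overlap. Without T48 replicate 2 the calls are 71 higher and 56 lower, and the count of features with groups apart is the largest of the 7, at 9751.

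Single features show both kinds of effect. They were picked as those whose change moved most without T48 replicate 2. Of the features called with all libraries, the fall that moved most stood at 6.35, 9.73 and 6.06 CPM in T72 and at 36.2, 101 and 28.7 CPM in T48. T48 replicate 2, the value of 101, was near CK (64.9, 105 and 63.3 CPM), and the log2 change of -2.90 became -2.13 without it. The rise that moved most stood at 23.9, 25.8 and 23.8 CPM in T72 and at 2.00, 6.19 and 1.77 CPM in T48. Its log2 change of 2.89 became 3.71 without T48 replicate 2, whose level was above CK (2.80, 4.85 and 3.05 CPM).

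A further 24 rises and 5 falls were called only without T48 replicate 2. The rise among them that moved most stood at 322, 189 and 218 CPM in T72 and at 17.6, 162 and 31.7 CPM in T48, with CK at 254, 347 and 328 CPM. T48 replicates 1 and 3 were low here and T48 replicate 2 was close to the T72 libraries, so that the log2 change was 1.78 with it (adjusted p = 0.330) and 3.30 without it (adjusted p = 0.0376). The fall among them that moved most stood at 2.92, 4.44 and 5.99 CPM in T72 and at 19.2, 73.2 and 19.0 CPM in T48. All T48 libraries were above T72, and the high T48 replicate 2 gave a larger change of -3.06 with a wider spread (adjusted p = 0.0580). Without it the change was -2.10 (adjusted p = 0.0497).

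Features in which T48 replicate 2 stood apart from its group were then placed against the other times. It was at least 2-fold above both other T48 libraries in 1139 features and at least 2-fold below both in 830. T48 replicate 1 stood apart in this way in 295 and 496 features, and T48 replicate 3 in 279 and 294. Of the 1139 and 830, the CK mean was nearer to T48 replicate 2 than to the other T48 libraries in 71.7% and 73.1%. The T72 mean was nearer to T48 replicate 2 in 29.1% and 36.9%, and the T24 mean in 30.8% and 24.5%. Where T48 replicate 1 stood apart, CK was nearer to it in 14.9% and 20.8%, and where T48 replicate 3 did, in 24.0% and 37.4%. The levels of T48 replicate 2 that its own group did not share were therefore more often on the side of CK than on that of T72 or T24.

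Some features drew most of their level from a single library. T48 replicate 2 alone held over 50% of the summed level of the 6 libraries in 155 features, against 49 for T48 replicate 1, 23 for T48 replicate 3 and 13 to 36 for the T72 libraries. Both features with no count in any T72 library reached their mean of 5 CPM through T48 replicate 2, at 385 and 1279 CPM, while the lowest T48 library had 0. Their adjusted p was 0.255 and 0.242, and neither was called.

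Among called features, falls somewhat outnumbered rises at each level in the fit with all libraries. At 5 to 20 CPM 41 of 10991 features rose and 48 fell, at 20 to 100 CPM 66 of 8081 rose and 89 fell, and at 100 CPM or more 30 of 1853 rose and 35 fell. The share called was 0.81%, 1.92% and 3.51%. Groups were apart in 28.2%, 36.5% and 36.4% of features at these levels, against 21.6% of all tested transcripts. Of those apart at 5 to 20 CPM, T72 was higher in 1738 and lower in 1357. At 20 to 100 CPM it was higher in 1444 and lower in 1505, and at 100 CPM or more in 314 and 361. Sizes of called changes were smaller at higher levels, where a smaller change can be called, so this is not read as a trend over all features. The called rises had medians of 1.71, 1.57 and 1.33 on the log2 scale and the called falls -1.90, -1.58 and -1.46. Without T48 replicate 2 the counts called were 18 rises and 18 falls, 34 and 31, and 19 and 7.

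None of the 10 most abundant features was called. The most abundant stood at 5000, 10760 and 4785 CPM in T72 and at 8769, 3529 and 9348 CPM in T48. The groups overlapped, with T72 replicate 2 and T48 replicates 1 and 3 high and T48 replicate 2 below all T72 libraries. Its log2 change was -0.08 (SE 0.59), and -0.40 without T48 replicate 2. The features ranked 3 and 5 followed it library by library: the ratio of the first to each stayed between 1.30 and 1.53 and between 1.80 and 2.08 over all 12 libraries. Whether these are copies of a transcript that share reads was not tested.

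In 7 of the 10 most abundant features the T72 and T48 libraries did not overlap, as in 36.4% of the features at 100 CPM or more and 21.6% of all tested transcripts. The change nearest to a call was a lower level of the tenth, at 1221, 1804 and 1149 CPM in T72 and 2925, 2943 and 2897 CPM in T48. T48 replicate 2 lay close to the other T48 libraries here, and the log2 change was -1.07 (SE 0.25, adjusted p = 0.103) with it and -1.06 without it. The seventh was higher in T72, at 4089, 3898 and 4100 CPM, than in T48, at 2511, 2184 and 2839 CPM (log2 change 0.68, SE 0.16, adjusted p = 0.105). The ninth stood at 3115, 2990 and 2929 CPM in T72 and 1881, 2574 and 2160 CPM in T48 (log2 change 0.45, SE 0.14, adjusted p = 0.236). Here T48 replicate 2 was the T48 library nearest to T72 and to CK (3194, 3484 and 3324 CPM), and the change was 0.58 without it (adjusted p = 0.116).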

How the data were processed

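Total RNA of roots was sequenced as paired reads of 150 bp, per the labels' protocols, and the submitters' processing notes name Trimmomatic for trimming. For the assembler, aligner and counter the sources used here give no name; feature IDs have the form of the Trinity assembler. The values deposited were taken as estimated counts for each feature, not normalised, and 0 columns were left without a sample. Of 990048 values above 0, 1 is exactly whole, and whether the values had been adjusted before deposit was not tested. The values were rounded, filtered with filterByExpr and scaled with TMM factors. edgeR 4.0.16 (R 4.3.3) fitted a quasi-likelihood model with a mean per group to the 9 libraries of T72, T48 and CK, with 6 residual degrees of freedom, and tested T72 minus T48, two-sided, with Benjamini-Hochberg adjustment over all 67979 features tested. T24 was kept out because its libraries hardly differ among themselves (a median of 0.10 to 0.11 on the log2 scale). SE values are the log2 change over the root of F. Alternatives, DESeq2 1.42.0 and limma 3.58.1 among them, are in the closing section. Members, named features, thresholds and alternatives were chosen with earlier results of these data known. Named features were, per direction, the largest change and the highest level among those called with and without T48 replicate 2, with groups apart and at least 10 counts in each of the 6 libraries; 4 features given without an ID were those whose change moved most without T48 replicate 2. Titles carry replicate numbers, but same-numbered libraries did not deviate together (correlations from -0.21 to 0.18), so no pairing was used.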

Additional observations from a re-analysis of the deposited data

How the results depend on the processing

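The 309 calls (137 higher, 172 lower) depended on the libraries and the tool. edgeR on all 12 libraries gave 1454 (651 and 803). On T72 and T48 alone it gave 0 (0 and 0), with an unadjusted p below 0.05 in 4871 (23.3%), against 13.5% of all transcripts tested. With no low-count filter it gave 164 (77 and 87, with 0.177% of all transcripts tested). DESeq2 gave 2370 (1028 and 1342) and limma 821 (351 and 470). The replicate block gave 187 (58 and 129, with 0.281% of all transcripts tested). In all 9 fits that left out 1 library the count was below 309, from 0 to 217, with 0 to 78 higher and 0 to 165 lower; such fits also test more transcripts and have 5 residual degrees of freedom in place of 6. Chosen after seeing the data, leaving out T48 replicate 2 gave 1189 (614 and 575) with all 12 libraries, 4 (4 and 0) with T72 and T48 alone, 2245 (1178 and 1067) with DESeq2 and 599 (347 and 252) with limma. The cause of these shifts was not tested. RLE factors (287, with 0.460% of all transcripts tested), library totals (394, with 0.637%) and a mean of at least 10 CPM (283) stayed within 1.5 times. The median change of all 20925 features ran from -0.019 to 0.035 over scalings and left-out libraries. Features with groups apart numbered 6657 with RLE factors and 6812 with library totals, against 6719 (where 21.6% of all tested transcripts were apart). With 1 library left out they numbered 7881 to 9751, where 28.6% to 35.7% of all tested transcripts were apart. Those kept from separating by T48 replicate 2 numbered 3044 with RLE factors and 2936 with library totals, against 3032.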

Other observations

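Each feature ID ends in a number from 1 to 4 (its suffix), which the file does not explain, and counts of rises and falls are given here by suffix. Of the 5278 features of suffix 4, 59 were called lower and 24 higher at 72 h, and of the 4906 of suffix 2, 52 were lower and 25 higher. Of the 5057 of suffix 3, 23 were lower and 44 higher, and of the 5684 of suffix 1, 38 were lower and 44 higher. Over all tested transcripts, 72 were lower and 24 higher of 17984 with suffix 4, 56 and 26 of 14500 with suffix 2, 25 and 49 of 16797 with suffix 3, and 40 and 48 of 18698 with suffix 1. Without T48 replicate 2 the features at 5 CPM or more gave 20 lower and 12 higher for suffix 4, 14 and 15 for suffix 2, 12 and 26 for suffix 3, and 10 and 18 for suffix 1, so the excess of falls in suffix 2 did not hold without it. With all libraries the median log2 change was -0.08, -0.05, 0.07 and 0.05 for suffixes 4, 2, 3 and 1. Over all tested transcripts this median was -0.39, -0.17, 0.30 and 0.16. Suffix 3 had the largest share of features with their highest group mean at 72 h (33.2%), and suffix 4 the largest share with it at 48 h (26.5%). The part of the suffix in the counts of rises and falls was not tested.

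Pairs of features whose IDs differ in the suffix alone had changes of the same sign in 472 of 942 pairs (50.1%). Pairs that share an assembly cluster and a suffix did so in 630 of 1029 (61.2%). Members of a cluster are not independent of each other, and an ID shared across suffixes is not read as the same gene.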
